A study of Mus musculus with 30 samples.

Results

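The 10 genes described here, Ide, Igf2bp3, Gpat3, Nucb2, Lnx1, Gm32468, S100a10, Ormdl3, Tubb4b, and Itpk1, were selected on these same counts for strong differences between wild-type and mutant mouse livers. All 10 were found by symbol among the 55335 genes of the count table, and all 10 were among the 15010 genes that passed the filter on low counts over all libraries. Because the difference between wild-type and mutant mice chose them, it is given below as a description without a test. Tests are given for the response to the drug and for the comparison of both mutants with each other, and since the genes were also described as differing regardless of drug, few drug responses among them are not independent evidence.

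Livers came from wild-type, C151S, and Nrf2-knockout mice, which were male, 7 to 10 weeks old, and on an albino C57BL/6J background. Each genotype was given 1 oral dose of either vehicle (dimethyl sulfoxide and Cremophor-EL in buffered saline) or CDDO-Me at 30 µmol/kg, and tissue was taken 24 hours later from 5 mice per group, 30 in all. C151S mice are homozygous for a Keap1 allele, made by genome editing, in which a reactive cysteine is replaced by serine, and Nrf2-knockout mice are homozygous for a disrupted Nfe2l2 gene in all cells. Wild-type mice were bought from the Jackson Laboratory, whereas both mutant lines were made at Tohoku University and bred as homozygotes, so that genotype and colony of origin cannot be told apart. The dates of sample isolation, which the study's own model held, are not in the labels, so that their part in any difference between groups cannot be told apart from genotype either. Libraries held 23667068 to 42073169 counts on genes, with a median of 33229925.

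NRF2, the product of Nfe2l2, is a transcription factor that raises detoxifying and antioxidant enzymes in the liver. KEAP1 marks it for degradation until electrophiles such as CDDO-Me modify cysteines of KEAP1, upon which NRF2 accumulates and binds antioxidant response elements near its target genes. The circadian clock, driven by the Arntl product BMAL1 and its partner CLOCK at E-box sequences, also sets the level of many liver genes by time of day. A difference between mice of separate colonies may also stem from genetic variants fixed in one of them. Gm32468 is a noncoding RNA, and the other selected genes encode proteins of varied roles. Apart from the drug response and the clock, the genome around each was therefore examined as well.

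The labels were checked first. Nfe2l2 lay between 47.9 and 71 CPM (counts scaled by library size) in wild-type livers and between 22.4 and 39.8 CPM in Nrf2-knockout livers, without overlap. In C151S livers it lay between 42 and 84.9 CPM. Alb, the hepatocyte gene for serum albumin, was the most abundant of the 5 measured hepatocyte markers by its mean over the 30 libraries. None of the 5 was without counts over all libraries together. Nqo1, a classic NRF2 target, averaged 7.2 ± 2.38 CPM after vehicle and 64.4 ± 25 CPM after CDDO-Me in wild-type livers (SD, n = 5 each), against 6.7 ± 0.386 and 7.05 ± 1.04 CPM in C151S livers and 1.96 ± 0.521 and 2.55 ± 0.612 CPM in Nrf2-knockout livers.

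A C151S liver of the CDDO-Me group, replicate 1, stood apart from its group. It lay more than 1 log2 unit outside the range of the other 4 livers of its group at 476 of 15010 genes (3.17%), the largest number of any library, and CDDO-Me-treated Nrf2-knockout replicate 2 was next with 390 (2.6%). Several of the 10 genes were at a wild-type level in the former, and the main values that rest on it are given with and without it.

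Of the 10 genes, 7 were higher and 3 were lower in wild-type livers (Igf2bp3, Gpat3, and Lnx1). In 3 of them, Ide, Igf2bp3, and Tubb4b, all 10 wild-type libraries lay on one side of all 20 mutant libraries. Without CDDO-Me-treated C151S replicate 1, S100a10 and Itpk1 were parted as well, which made 5. Among all 15010 genes, 53 (0.353%) had every wild-type library above all mutant libraries and 20 (0.133%) had every one below. Since the genes were chosen for this difference, nothing is read from their share.

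**Figure D1:**
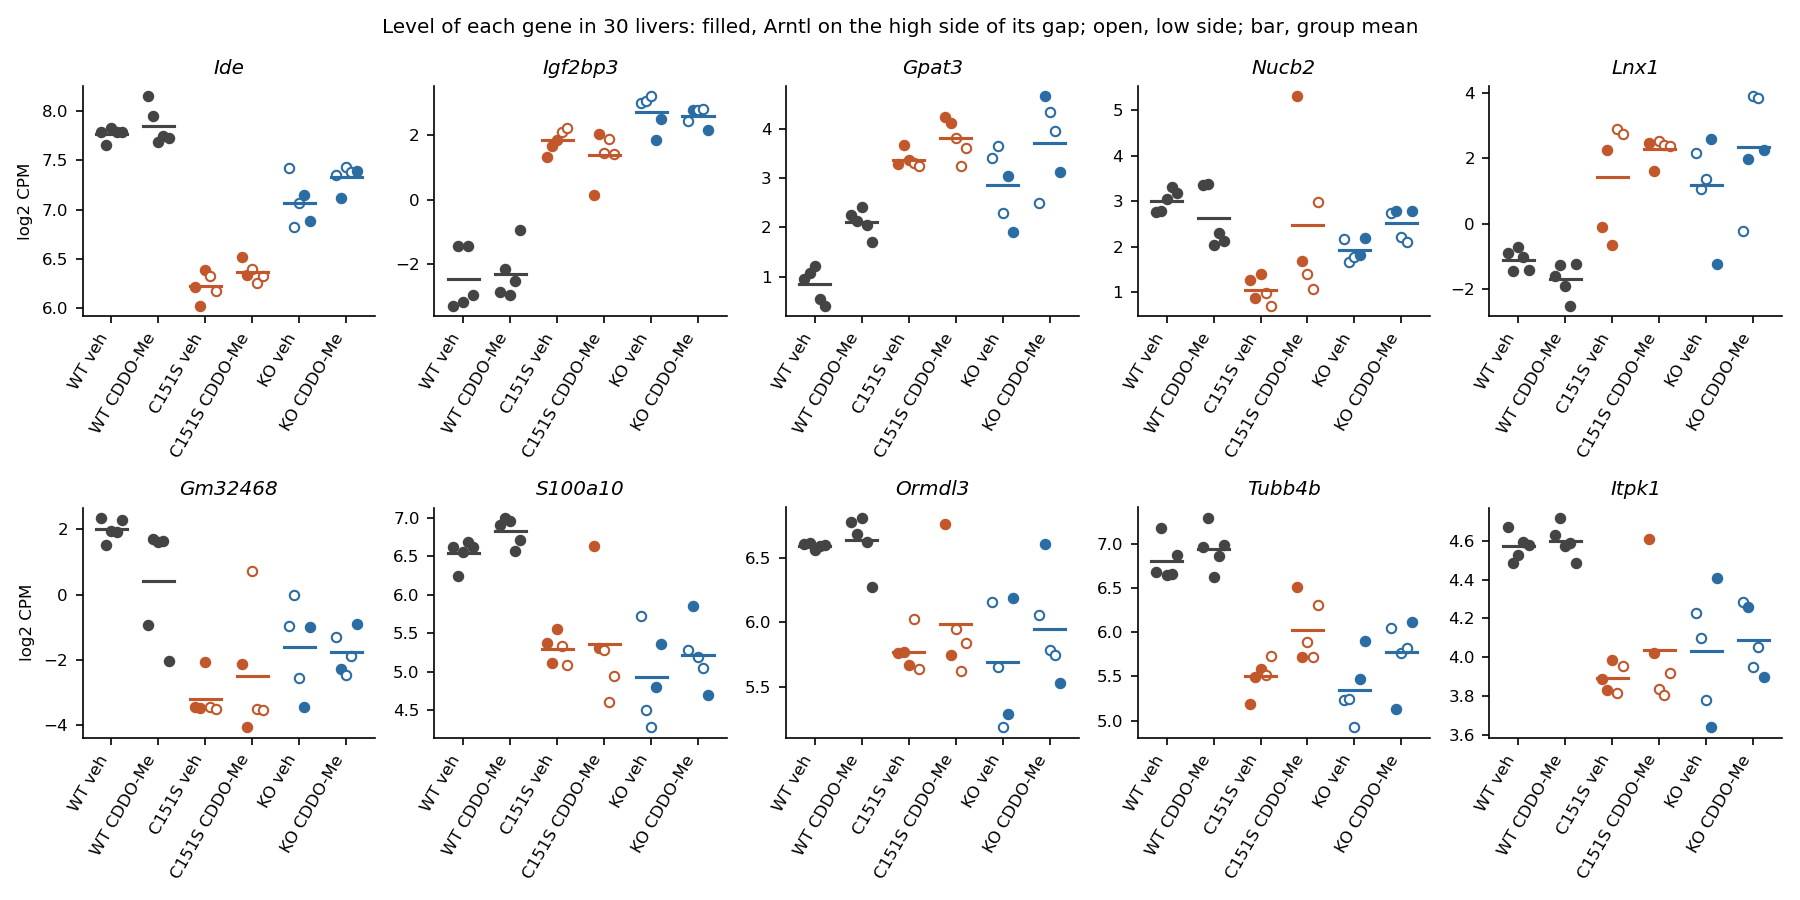
Log2 CPM (vertical axis) of each of the 10 genes in the 30 livers, 1 point per mouse and 5 per group (veh, vehicle; WT, wild-type; KO, Nrf2-knockout), with bars at group means. Filled points are livers with high Arntl and open points those with low Arntl. Ide, Igf2bp3, and Tubb4b part all 10 wild-type livers from all 20 mutant livers, and replicate 1 of the CDDO-Me-treated C151S group, the first filled point of the fourth group, is far above its group in Nucb2, S100a10, Ormdl3, and Itpk1.

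Ide encodes the insulin-degrading enzyme, a metalloprotease that cleaves insulin, glucagon, and amyloid peptides. In wild-type livers it was at 220, 201, 226, 221, and 221 CPM after vehicle and at 283, 246, 206, 215, and 212 CPM after CDDO-Me. Nrf2-knockout livers held 171, 113, 134, 142, and 118 CPM after vehicle and 163, 139, 173, 166, and 167 CPM after CDDO-Me. In C151S livers the values were 74, 65, 83.9, 80.4, and 72 CPM after vehicle and 91.6, 81, 84, 76.3, and 80.5 CPM after CDDO-Me. The 3 genotypes formed 3 bands that did not overlap, with C151S livers lowest and Nrf2-knockout livers in between. The wild-type mean was 2.9-fold the C151S mean and 1.61-fold the Nrf2-knockout mean after vehicle, and 2.81-fold and 1.44-fold after CDDO-Me.

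The difference in Ide between the mutants did not choose the gene and was tested. Ide was lower in C151S than in Nrf2-knockout livers by 0.85 on the log2 scale after vehicle, where the log2 fold change was -0.85 (SE 0.12, 95% interval -1.12 to -0.59, adjusted p = 0.00971, edgeR's quasi-likelihood test). After CDDO-Me the log2 fold change was -0.97 (SE 0.1, 95% interval -1.19 to -0.75, adjusted p = 0.0019, same edgeR test). All 5 C151S livers were below all 5 Nrf2-knockout livers in each treatment. Ide was the only one of the 9 genes tested that edgeR called between the mutants, in either treatment, against 50 of 14323 genes (0.349%) after vehicle and 23 of 14186 (0.162%) after CDDO-Me. With 1 library left out, these counts over all genes ran from 29 to 54 and from 11 to 38, and DESeq2 called 180 and 118.

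Igf2bp3 encodes an mRNA-binding protein of fetal tissues that is nearly silent in the adult liver. Wild-type livers held 1, 9, 2, 10, and 2 counts after vehicle and 2, 5, 2, 4, and 15 counts after CDDO-Me, so that 5 of 10 were at or under the floor of 3 counts. C151S livers were at 2.42, 3.12, 3.52, 4.16, and 4.6 CPM after vehicle and at 1.05, 3.97, 2.64, 3.59, and 2.59 CPM after CDDO-Me. Nrf2-knockout livers held 7.84, 8.23, 9, 3.5, and 5.56 CPM after vehicle and 5.32, 6.68, 6.69, 6.92, and 4.37 CPM after CDDO-Me. No wild-type liver exceeded 0.461 CPM and no mutant liver was under 1.05 CPM, and the ranges of the mutants overlapped after vehicle but not after CDDO-Me. The mean after vehicle was 22.6-fold the wild-type mean in C151S livers and 43.2-fold in Nrf2-knockout livers. That wild-type mean rests on 24 counts over 5 livers, 3 of them at or under the floor, so these folds are imprecise. Between the mutants Igf2bp3 was not called by edgeR's quasi-likelihood test, with a log2 fold change of -0.94 after vehicle (SE 0.25, adjusted p = 0.212) and -1.11 after CDDO-Me (SE 0.29, adjusted p = 0.315) for C151S against Nrf2-knockout. DESeq2 called it in both, with adjusted p of 0.0273 and 0.0252.

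The other genes of the Igf2bp3 list were the family members Igf2bp1 and Igf2bp2 and genes of the fetal liver. Of 4 tested, Afp, the gene for alpha-fetoprotein, was higher in C151S than in wild-type livers after vehicle (log2 fold change of wild-type minus C151S -0.76, SE 0.21, adjusted p = 0.0449, edgeR), and no gene was called after CDDO-Me. Against Nrf2-knockout livers, wild-type livers were lower in 2 of 4 in each treatment, Afp (-1.92, SE 0.26, after vehicle, and -1.71, SE 0.35, after CDDO-Me) and H19, an imprinted noncoding RNA of the fetal liver (-4.16, SE 1, and -2.38, SE 0.61). The median over the 4 genes was -1.17 after vehicle and -1.07 after CDDO-Me, against -0.01 and -0.03 over all genes tested. Igf2bp2 was not called in any of the 4 comparisons, with log2 fold changes between -0.43 and 0.17. Igf2bp1 was at 5 counts or fewer in every library.

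Gpat3 encodes a glycerol-3-phosphate acyltransferase of the endoplasmic reticulum, which starts the synthesis of triglycerides and phospholipids. In wild-type livers it was at 1.89, 2.06, 2.28, 1.41, and 1.27 CPM after vehicle and at 4.7, 4.3, 5.26, 4.11, and 3.2 CPM after CDDO-Me. C151S livers held 9.73, 12.6, 10.2, 9.79, and 9.36 CPM after vehicle and 18.7, 17.1, 14, 9.47, and 12.1 CPM after CDDO-Me. Nrf2-knockout livers varied most, with 10.5, 12.5, 4.83, 8.19, and 3.71 CPM after vehicle and 5.58, 25, 20.2, 15.5, and 8.62 CPM after CDDO-Me. Every CDDO-Me-treated wild-type liver was above every vehicle-treated one, and 2 Nrf2-knockout livers of the vehicle group fell within the range of the wild-type livers given CDDO-Me. Mean Gpat3 after vehicle was 5.8-fold the wild-type mean in C151S livers and 4.45-fold in Nrf2-knockout livers.

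Gpat3 was the only gene of the 9 tested that responded to CDDO-Me in wild-type mice, with a log2 fold change of 1.26 (SE 0.19, 95% interval 0.84 to 1.67, adjusted p = 0.0024, edgeR's quasi-likelihood test). The rise was in the direction of the mutant livers, and every treated wild-type liver remained below the C151S livers. In the fit of all 30 libraries, which share 1 estimate of spread, its log2 fold change was 1.27 and its adjusted p 0.0603. In C151S mice the response was 0.46 (SE 0.18, adjusted p = 0.354) and in Nrf2-knockout mice 0.9 (SE 0.42, adjusted p = 0.638), neither called by edgeR. The response in wild-type mice was not shown to differ from that in C151S mice (difference 0.8, 95% interval -0.12 to 1.73, adjusted p = 0.67, edgeR) or in Nrf2-knockout mice (difference 0.35, 95% interval -0.57 to 1.28, adjusted p = 0.971, edgeR).

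Other enzymes of glycerolipid synthesis did not share one direction. Of 13 tested, Gpam, the mitochondrial counterpart of Gpat3, and Agpat2, which acts in the next step, were higher in wild-type than in C151S livers after vehicle (log2 0.67, SE 0.15, adjusted p = 0.0182, and 0.69, SE 0.11, adjusted p = 0.00529, edgeR) and than in Nrf2-knockout livers (0.7, SE 0.15, and 0.75, SE 0.14). Agpat1 was lower in wild-type than in Nrf2-knockout livers after vehicle (-0.54, SE 0.12). After CDDO-Me, Lpin1, a phosphatidate phosphatase, was lower in wild-type than in C151S livers (-2.56, SE 0.56) and than in Nrf2-knockout livers (-1.6, SE 0.4), while Gpam was higher than in C151S livers (0.8, SE 0.16). None of the 13 genes was called after CDDO-Me in wild-type mice by edgeR's test.

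Nucb2 encodes nucleobindin-2, a calcium-binding protein and the precursor of the peptide nesfatin-1. Wild-type livers were at 6.68, 6.83, 8.21, 9.8, and 8.94 CPM after vehicle and at 10.1, 10.3, 4.06, 4.84, and 4.3 CPM after CDDO-Me. C151S livers held 2.33, 1.77, 2.55, 1.92, and 1.56 CPM after vehicle and 39.4, 3.13, 2.57, 2.03, and 7.82 CPM after CDDO-Me. Nrf2-knockout livers held 4.41, 3.11, 3.37, 3.47, and 4.48 CPM after vehicle and 6.56, 6.85, 4.6, 4.21, and 6.79 CPM after CDDO-Me. The vehicle groups did not overlap, with wild-type livers 4-fold above C151S and 2.15-fold above Nrf2-knockout livers on average, but after CDDO-Me the groups overlapped. The wild-type minus C151S difference in mean log2 CPM was 1.97 after vehicle and 0.15 after CDDO-Me, or 0.86 without CDDO-Me-treated C151S replicate 1, and from Nrf2-knockout livers it was 1.09 and 0.11. By mean CPM the direction after CDDO-Me was the opposite with all 5 C151S livers, at 0.612-fold (6.72 against 11 CPM).

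Within C151S mice the log2 fold change of Nucb2 after CDDO-Me was 2.42 (SE 0.78, 95% interval 0.72 to 4.13, unadjusted p = 0.00941, adjusted p = 0.347, edgeR), and without replicate 1 of the treated group it was 0.93 (adjusted p = 0.489). The edgeR fit of all 30 libraries called it, at 2.43 (adjusted p = 0.0491). In Nrf2-knockout mice it was 0.61 (SE 0.18, adjusted p = 0.547) and in wild-type mice -0.28 (SE 0.27, adjusted p = 0.666), all by edgeR. The response in wild-type minus that in C151S mice was -2.7 (SE 0.73, adjusted p = 0.129, edgeR), and -1.21 without that library (adjusted p = 0.436). C151S against Nrf2-knockout after vehicle gave -0.89 (SE 0.18, adjusted p = 0.0722, edgeR), and DESeq2 called it with an adjusted p of 0.00105. After CDDO-Me the difference was 0.91 (SE 0.72, adjusted p = 0.803, edgeR), and -0.57 without that C151S library (adjusted p = 0.663).

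Lnx1 encodes a ubiquitin ligase with PDZ domains that binds the Notch regulator NUMB. In wild-type livers it lay between 0.309 and 0.551 CPM after vehicle and between 0.117 and 0.369 CPM after CDDO-Me. C151S livers were at 0.872, 4.73, 0.587, 7.45, and 6.59 CPM after vehicle and between 3 and 5.68 CPM after CDDO-Me. Nrf2-knockout livers were at 4.47, 2.05, 2.54, 6.01, and 0.371 CPM after vehicle and at 0.797, 3.9, 14.8, 14.3, and 4.72 CPM after CDDO-Me. Mutant livers thus spread over a wide range, and only replicate 5 of the vehicle-treated Nrf2-knockout mice fell among wild-type values. None of its drug responses was called, with a log2 fold change of -0.67 in wild-type mice (SE 0.32), 0.27 in C151S mice (SE 0.57), and 1.31 in Nrf2-knockout mice (SE 0.73). Its relative Lnx2 was higher in wild-type than in Nrf2-knockout livers after vehicle (log2 0.56, SE 0.18, adjusted p = 0.0467, edgeR), the opposite direction, and it was the only call in the list of Nucb1, Lnx2, Numb, and Numbl across the 4 comparisons of wild-type with mutant mice.

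Gm32468 is annotated as a long intergenic noncoding RNA. Wild-type livers held 5.05, 2.81, 3.83, 3.77, and 4.87 CPM after vehicle and 0.47, 3.21, 3, 3.08, and 0.184 CPM after CDDO-Me. C151S livers held 1, 1, 7, 1, and 1 counts after vehicle and 5, 0, 51, 1, and 1 counts after CDDO-Me, and the 0 allows up to 3 counts. Nrf2-knockout livers lay between 0.033 and 0.939 CPM after vehicle and between 0.12 and 0.472 CPM after CDDO-Me. The vehicle groups of wild-type and mutant mice did not overlap, but 2 of the 5 CDDO-Me-treated wild-type livers, at 12 and 6 counts, were within the mutant range. The gene was too low in C151S mice to be tested there, and its response in wild-type mice was not called (log2 fold change -1.03, SE 0.52, adjusted p = 0.351, edgeR).

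S100a10, Ormdl3, and Itpk1 were the most alike in their variation. S100a10 encodes the p11 partner of annexin A2 at the plasma membrane, Ormdl3 a regulator of serine palmitoyltransferase, the first enzyme of sphingolipid synthesis, and Itpk1 a kinase that makes higher inositol phosphates. S100a10 lay between 75.6 and 128 CPM in wild-type livers and between 19.3 and 58 CPM in mutant livers, except for CDDO-Me-treated C151S replicate 1 at 99.5 CPM. Ormdl3 lay between 77.5 and 112 CPM in wild-type livers and between 36.4 and 72.8 CPM in mutant livers, except for that library at 109 CPM and CDDO-Me-treated Nrf2-knockout replicate 2 at 97.7 CPM. Itpk1 lay between 22.3 and 26.2 CPM in wild-type livers and between 12.4 and 21.2 CPM in mutant livers, except for the same C151S library at 24.3 CPM. All 3 genes thus reached a wild-type level in that C151S liver, while Ide, at 91.6 CPM, and Igf2bp3, at 1.05 CPM, stayed on the mutant side there.

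After removal of the 6 group means, the deviations of S100a10, Ormdl3, and Itpk1 over the 30 libraries were correlated with r of 0.85 for S100a10 and Ormdl3, 0.83 for Ormdl3 and Itpk1, and 0.79 for S100a10 and Itpk1. Without the C151S library they were 0.79, 0.75, and 0.66. These are descriptions over libraries that share depth and composition. None of the 3 genes was called in any drug or mutant comparison, with log2 fold changes between -0.16 and 0.28. Without the C151S library, S100a10 turned from 0.23 to -0.25 with CDDO-Me in C151S mice, Ormdl3 moved from 0.27 to 0.01, and Itpk1 turned from 0.17 to -0.01. Between the mutants after CDDO-Me S100a10 turned from 0.27 to -0.2 and Ormdl3 from 0.05 to -0.2, while Itpk1 moved from -0.03 to -0.2, none of them called. The spread of Ormdl3 among vehicle-treated wild-type livers was 96.5 ± 1.47 CPM (SD, n = 5), against 54 ± 17.3 CPM among vehicle-treated Nrf2-knockout livers.

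The relatives of these genes mostly did not follow. Of 13 S100 proteins and annexins tested, none was called between wild-type and C151S livers in either treatment by edgeR, and S100a8 and S100a9, which are carried by neutrophils, were lower in wild-type than in Nrf2-knockout livers after vehicle (log2 -2.22, SE 0.55, and -1.78, SE 0.49). S100a8 rose with CDDO-Me in wild-type mice (1.69, SE 0.38, adjusted p = 0.0235, edgeR). In the list of ORMDL proteins and sphingolipid enzymes, 2 of 10 were lower in wild-type than in C151S livers after vehicle, Sptssa (-0.59, SE 0.1), a small subunit of serine palmitoyltransferase, and the ceramide synthase Cers6 (-1.05, SE 0.29), and Cers6 rose with CDDO-Me in wild-type mice (0.8, SE 0.16). Ormdl1 and Ormdl2 were not called in any comparison. Among 15 inositol phosphate kinases and phosphatases, Itpka was lower in wild-type than in Nrf2-knockout livers after vehicle (-0.8, SE 0.22), and Isyna1, which makes inositol, rose with CDDO-Me in wild-type mice (1.35, SE 0.29). For 5 genes of insulin degradation and signalling, among them the insulin receptor gene Insr and the Ide relative Nrd1, 0 were called by edgeR in any of the 4 comparisons of wild-type with mutant mice or with CDDO-Me in wild-type mice.

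Tubb4b encodes a beta-tubulin of microtubules. Its wild-type values were 103, 146, 101, 101, and 118 CPM after vehicle and 126, 157, 98.7, 116, and 127 CPM after CDDO-Me. C151S livers held 36.4, 45.2, 48, 45.9, and 52.9 CPM after vehicle and 91.5, 52.5, 59.4, 52.5, and 79.4 CPM after CDDO-Me. Nrf2-knockout livers held 37.4, 37.7, 30.3, 44.1, and 59.6 CPM after vehicle and 66, 35, 54.2, 56.5, and 69.5 CPM after CDDO-Me. Wild-type livers were above all mutant livers, narrowly so for the C151S library at 91.5 CPM, and the means after vehicle differed 2.49-fold from C151S and 2.72-fold from Nrf2-knockout livers. In C151S mice the response to CDDO-Me was 0.55 (SE 0.17, unadjusted p = 0.00726, adjusted p = 0.347, edgeR). Without replicate 1 of the treated C151S group it was 0.4 (adjusted p = 0.474, edgeR).

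Of the gene lists named for single genes, only the tubulins held calls in the same direction as their gene in each of the 4 comparisons of wild-type with mutant mice, with 3 genes higher in wild-type livers in each, of 9 tested or, against Nrf2-knockout after vehicle, 10. Tuba1c averaged 58 ± 14.4 CPM in vehicle-treated wild-type, 23.1 ± 6 in C151S, and 21.1 ± 4 in Nrf2-knockout livers (SD, n = 5 each), with log2 differences of 1.32 (SE 0.19, adjusted p = 0.00312, edgeR) and 1.44 (SE 0.18, adjusted p = 0.000682, edgeR). Tuba4a was higher in wild-type livers in all 4 comparisons (0.97, 0.61, 1.02, and 0.75). Tubb2a was called in 3 of them, with values of 1.8 against C151S after CDDO-Me and 2 and 1.89 against Nrf2-knockout after vehicle and CDDO-Me, and Tubg1 in the remaining one (0.72, SE 0.1). Tubb4a and Tuba8 were lower in wild-type than in Nrf2-knockout livers, in 1 treatment each (-1.47, SE 0.34, and -1.09, SE 0.28). No tubulin was called after CDDO-Me in wild-type mice.

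The first question was whether the 10 genes follow NRF2 activity. In wild-type mice CDDO-Me changed 377 of 13697 genes (2.75%), and 16 of 19 tested genes of the NRF2 target list rose, with a median log2 fold change of 1.29 against -0.01 over all genes. Cbr3, a carbonyl reductase (5.24, SE 0.31), Gstm1, a glutathione S-transferase (2.42, SE 0.16), Ugdh, which supplies glucuronic acid (1.52, SE 0.1), and Blvrb, a biliverdin reductase (1.29, SE 0.08), had the lowest p. Of the 10 selected genes, 1 of 9 tested was called, Gpat3, and their median was 0.05. Igf2bp3 was too low in wild-type mice to be tested. S100a10 gave 0.27 (SE 0.1, unadjusted p = 0.0179, adjusted p = 0.167, edgeR), and for Ide, Ormdl3, Tubb4b, and Itpk1 the 95% intervals of the response lay between -0.16 and 0.42.

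In C151S mice CDDO-Me changed 13 of 14128 genes (0.0920%), and 0 of 9 selected genes and 0 of 18 NRF2 targets were called by edgeR, with 3 of the 9 at an unadjusted p under 0.05 (Nucb2, Tubb4b, and Gpat3). The count of all genes called ran from 0 to 22 with 1 library left out, and DESeq2 called 100. In Nrf2-knockout mice edgeR called 0 of 14474 genes (0%), with 1136 at an unadjusted p under 0.05, and DESeq2 called 55. Of the 10 selected genes, 0 were called by edgeR or DESeq2 and 1 had an unadjusted p under 0.05 (Nucb2). DESeq2 called 0 of the 9 in C151S mice as well. The response in wild-type mice differed from that in C151S mice at 72 of 15010 genes (0.480%) and from that in Nrf2-knockout mice at 40 (0.266%), while among NRF2 targets 13 and 12 of 19 did so. None of the 10 selected genes was called in either, with 2 and 0 at an unadjusted p under 0.05, and DESeq2 called 1 (Nucb2) and 0. Igf2bp3 and Gm32468 are among the 10 although they were too low to be tested within wild-type and within C151S mice, respectively, and 1 of the 2 is Gm32468, so that their fits say little.

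**Figure D2:**
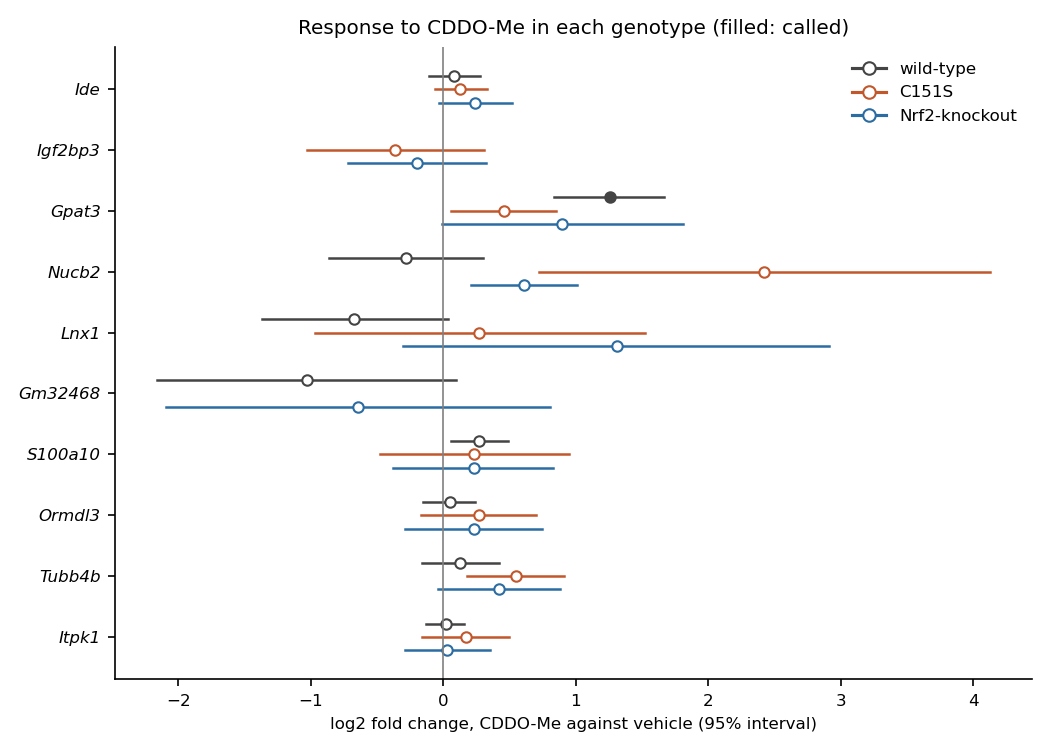
Log2 fold change of CDDO-Me against vehicle (horizontal axis) with its 95% interval for each gene and genotype, 5 mice per group. The only filled point, which marks a call, is Gpat3 in wild-type mice at 1.26, and genes too low to be tested are left out.

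Wild-type livers were above C151S livers after vehicle at 4 of 18 tested NRF2 targets (median log2 difference 0.41), among them Me1 (1.41, SE 0.19) and Srxn1 (0.56, SE 0.1), and above Nrf2-knockout livers at 12 of 18 (median 0.93), among them Gstm1 (2.63, SE 0.17) and Ephx1 (1.65, SE 0.11). After CDDO-Me the counts were 17 of 19 against each mutant, with medians of 1.78 and 2.71. Tested directly, C151S livers were above Nrf2-knockout livers at 5 of 18 targets after vehicle and at 2 of 18 after CDDO-Me. Among the selected genes, mean Igf2bp3 after vehicle took the reverse order, at 0.158 CPM in wild-type, 3.56 in C151S, and 6.83 in Nrf2-knockout livers. After vehicle, mean S100a10, Ormdl3, and Tubb4b fell from wild-type to C151S to Nrf2-knockout livers. In the other selected genes the vehicle-treated C151S mean was farther from wild-type than the Nrf2-knockout mean. The part of NRF2 in these levels was not tested. Ide was lower in C151S than in Nrf2-knockout livers, and for S100a10, Ormdl3, Tubb4b, and Itpk1 the mutants were not shown to differ, with 95% intervals of the log2 difference that lay between -0.45 and 0.8 after vehicle and between -0.49 and 1.04 after CDDO-Me. Among the same 4 genes, the wild-type minus mutant difference in mean log2 CPM after CDDO-Me was 0.51 to 1.61, against 0.54 to 1.62 after vehicle. Other selected genes moved between vehicle and CDDO-Me. Against C151S livers, Nucb2 went from 1.97 to 0.15, Gm32468 from 5.21 to 2.91, Gpat3 from -2.52 to -1.69, and Lnx1 from -2.52 to -3.96. Igf2bp3 went from -4.27 to -3.65 and Ide from 1.54 to 1.48. These differences chose the genes and are descriptions only. As background, wild-type livers differed from C151S livers at 675 of 13946 genes (4.84%) after vehicle and at 692 of 13844 (5%) after CDDO-Me, and from Nrf2-knockout livers at 1462 of 14030 (10.4%) and 1315 of 13935 (9.44%). Single libraries moved these counts. Against C151S livers after vehicle the count was 390 without C151S replicate 2 and 1168 without C151S replicate 4, and after CDDO-Me it was 379 without wild-type replicate 1 and 1303 without C151S replicate 1, the library that stood apart. Against Nrf2-knockout livers after vehicle it was 949 without Nrf2-knockout replicate 3.

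**Figure D3:**
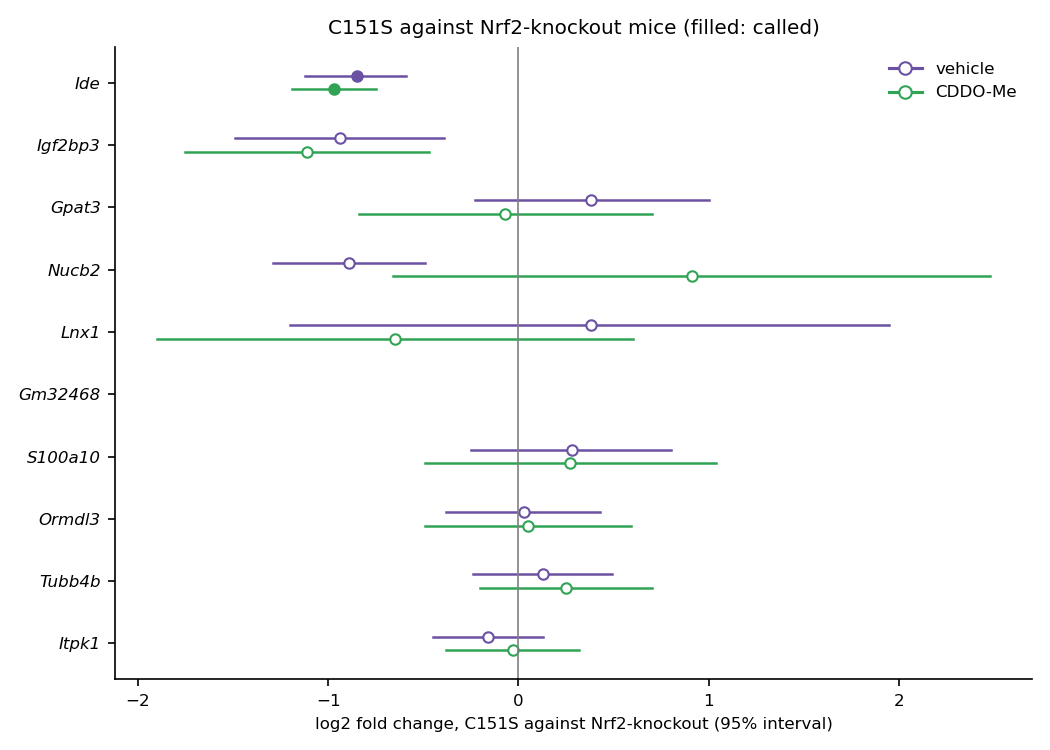
Log2 fold change of C151S against Nrf2-knockout livers (horizontal axis) with its 95% interval, after vehicle and after CDDO-Me, 5 mice per group. Filled points mark calls by edgeR, and Ide is the only gene so called, at -0.85 and -0.97. Gm32468 was too low to be tested.

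Promoters of the selected genes were searched for the letters of the antioxidant response element and of the E-box. RefSeq windows (GRCm38.p6) from 250 bases before to 50 bases after the start were matched for 9 of the 10 genes, with 10 windows in all. The core TGACNNNGC was searched on both strands and was in 4071 of 32851 windows of all genes (12.4%) and in 0 of the 10. The window of Nqo1 held none either, so the absence of these letters from a window says nothing about NRF2. The E-box CACGTG, which reads the same on both strands, was in 2349 of all windows (7.15%) and in those of Igf2bp3 and Lnx1. They are shown because both genes were higher in mutant livers and because the clock is examined next, with the E-boxes in capitals.
Igf2bp3: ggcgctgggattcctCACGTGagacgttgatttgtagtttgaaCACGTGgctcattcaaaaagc
Lnx1: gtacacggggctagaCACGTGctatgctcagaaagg
The Igf2bp3 stretch is chr6:49214929-49214992 on the minus strand, with E-boxes that begin at positions -23 and 5 from the start. The Lnx1 stretch is chr5:74703110-74703145, also on the minus strand, with the E-box at position -227.

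The second question was whether the difference follows the phase of the clock. Arntl split the livers at a wide gap. All 10 wild-type livers were on the high side, between 9.53 and 27.7 CPM, as were 9 of the 20 mutant livers, between 5.69 and 26.4 CPM, while 11 mutant livers lay between 0.39 and 1.81 CPM. The low side held 5 of 10 C151S and 6 of 10 Nrf2-knockout livers, in both treatments. These are sides of a gap that was seen in earlier results of the same counts, not groups of the study. Against wild-type livers, the clock list of 17 genes held 1 call in C151S after vehicle and 2 after CDDO-Me, all lower in wild-type livers. Against Nrf2-knockout livers it held 3 lower and 2 higher in wild-type livers after vehicle, and 2 lower and 1 higher after CDDO-Me. Ciart, a clock repressor, was lower in wild-type livers in all 4 comparisons (log2 differences -3.66, -3.04, -3.91, and -2.19), and Per2 and Per1, clock repressors as well, were among the lower calls after CDDO-Me. Clock, the partner of Arntl, was higher in wild-type than in Nrf2-knockout livers after vehicle (0.94, SE 0.23) and after CDDO-Me (0.62, SE 0.18), as was Nfil3, a repressor of transcription, after vehicle (1.06, SE 0.32). With CDDO-Me in wild-type mice 0 of 17 were called by edgeR.

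In Ide the side of the gap made no difference in C151S livers, with the low-side mean minus the high-side mean at 0, and was 0.11 on the log2 scale in Nrf2-knockout livers. Lnx1 had the largest shift among the 10 genes, 1.46 in C151S and 0.62 in Nrf2-knockout livers, followed in C151S by Nucb2 at -0.67 and S100a10 at -0.55 and in Nrf2-knockout livers by Igf2bp3 at 0.56. The C151S shifts of Nucb2 and S100a10 include CDDO-Me-treated C151S replicate 1, a high-side liver, at 39.4 and 99.5 CPM. Without it, Nucb2 was at 1.77 to 3.13 CPM on the high and 1.56 to 7.82 CPM on the low side. S100a10 was then at 34.6 to 46.9 CPM on the high and 24.2 to 40.3 CPM on the low side. The ranges of both sides overlapped within each mutant for all 10 genes over all libraries, but without CDDO-Me-treated C151S replicate 1 the sides parted for Lnx1 in C151S livers, with 0.587 to 4.73 CPM on the high and 5.1 to 7.45 CPM on the low side. Arntl itself shifted by -4.4 and -3.65. Compared with the 9 high-side mutant livers alone, wild-type livers kept the same direction in all 10 genes when the treatments were pooled. Ide differed from C151S livers by 1.51 against all 10 and against the 5 high-side livers, and Lnx1 by -3.24 against all and -2.51 against the high-side livers. Igf2bp3, at -5.01 and -4.67 from Nrf2-knockout livers, and Tubb4b, at 1.11 and 1.18 from C151S livers, moved little when pooled, though Tubb4b went from 1.46 to 1.13 against Nrf2-knockout livers after vehicle. Ide, Igf2bp3, and Tubb4b parted wild-type from all mutant livers, so their separation from the 9 high-side livers was fixed beforehand. No other selected gene parted wild-type from high-side mutant livers when all of these were kept. Without CDDO-Me-treated C151S replicate 1, a high-side liver, S100a10 and Itpk1 did so, as they did from all remaining mutant livers. Split by treatment, Nucb2 after CDDO-Me turned from 0.15 to -0.85 against C151S, where the high side holds 2 livers and 1 of them is the library that stood apart, and from 0.11 to -0.15 against Nrf2-knockout livers. Against the same 2 C151S livers after CDDO-Me, S100a10 went from 1.47 to 0.85, Ormdl3 from 0.65 to 0.38, Itpk1 from 0.56 to 0.28, and Gpat3 from -1.69 to -2.06. After vehicle, Lnx1 went from -2.52 to -1.6 against C151S livers, of which 3 were on the high side, and from -2.29 to -1.78 against Nrf2-knockout livers.

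**Figure D4:**
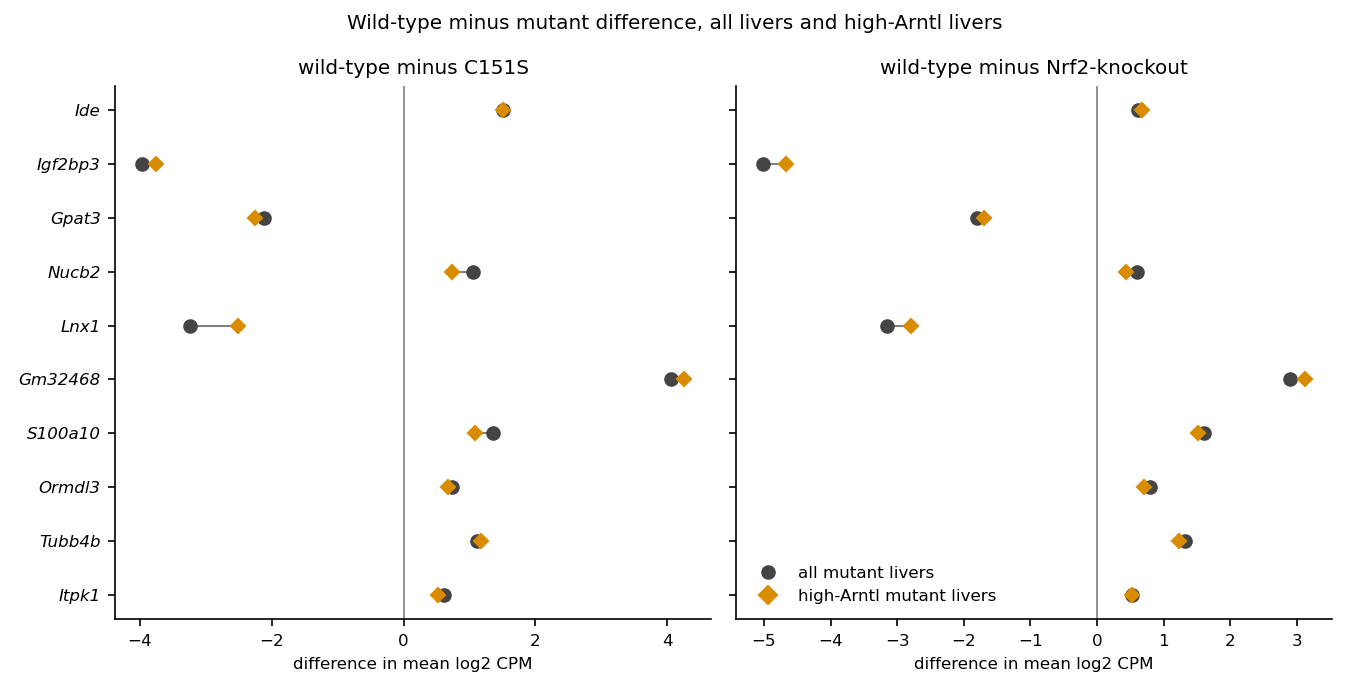
Wild-type minus mutant difference in mean log2 CPM (horizontal axis), with both treatments pooled, against all 10 livers of each mutant (circles) and against its high-Arntl livers only (diamonds, 5 C151S and 4 Nrf2-knockout). No gene changes sides, and Lnx1 moves most, from -3.24 to -2.51 against C151S.

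The third question concerned the colony. The 10 genes lie on 9 chromosomes, Ide on 19, Igf2bp3 on 6, Gpat3 and Lnx1 on 5, Nucb2 on 7, Gm32468 on 10, S100a10 on 3, Ormdl3 on 11, Tubb4b on 2, and Itpk1 on 12. The mutated genes are Nfe2l2 and Keap1, and Tubb4b is the only one of the 10 on the chromosome of either, 50.5 Mb from Nfe2l2. Of the genes tested within 500 kb of any of the 10, 8 of 127 (6.3%) differed between wild-type and C151S livers after vehicle and 3 of 124 (2.42%) after CDDO-Me, and 7 of 131 (5.34%) and 10 of 124 (8.06%) differed from Nrf2-knockout livers, against 4.84%, 5%, 10.4%, and 9.44% of all genes, shares that move with single libraries as given above.

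Ide (chr19:37268743-37337852, minus strand) had 2 of 9 tested neighbours within 500 kb called between wild-type and C151S livers after vehicle, Btaf1 and Cyp26a1. Of the 2 nearest tested neighbours on each side, March5, Cpeb3, and Kif11 were not called in any of the 4 comparisons, with log2 values between -0.6 and 0.28. The remaining one, Gm38345 on the side of Kif11, was called in 1 of them, lower in wild-type livers (-0.63, adjusted p = 0.0365, edgeR). March5, at 71.7 ± 3.71 CPM in vehicle-treated wild-type and 75.7 ± 13.7 CPM in C151S livers (SD, n = 5), is well expressed. Cyp26a1, a retinoic acid hydroxylase, was higher in wild-type livers in all 4 comparisons (1.38, 1.6, 3.01, and 2.31). Btaf1 was higher in 1 of them (0.66, adjusted p = 0.00483, edgeR). Fgfbp3 lies in the same window and is known, with Ide, to vary in copy number among C57BL/6J mice. It was low, at 0.427 ± 0.167 CPM in vehicle-treated wild-type, 0.199 ± 0.0414 in C151S, and 0.767 ± 0.107 in Nrf2-knockout livers, so that C151S livers were lowest, as with Ide, but Nrf2-knockout livers were highest. Between the mutants Fgfbp3 was called after vehicle in the direction of Ide (C151S against Nrf2-knockout -1.93, SE 0.24, adjusted p = 0.00437, edgeR) and not after CDDO-Me (-1.74, SE 0.31, adjusted p = 0.0569). Between wild-type and Nrf2-knockout livers it was not called after vehicle (-0.85, SE 0.27, adjusted p = 0.0512, edgeR), and it was too low to be tested against C151S livers. Copy number was not measured, and its part in the level of Ide was not tested.

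Lnx1 (chr5:74592447-74702912, minus strand) had 1 neighbour that parted wild-type from mutant livers in all 4 comparisons. Scfd2, a gene of vesicle traffic, was higher in wild-type livers by log2 values of 0.82, 0.65, 0.76, and 0.59, opposite to Lnx1, at 11.9 ± 1.29 CPM in vehicle-treated wild-type against 6.67 ± 0.891 in C151S and 6.92 ± 0.905 in Nrf2-knockout livers (SD, n = 5). Fip1l1, which overlaps Lnx1, was not called. No neighbour of Nucb2 or Itpk1 within 500 kb was called in any comparison. S100a11, beside S100a10, was at 2.69 ± 0.17 CPM in vehicle-treated wild-type and 2.6 ± 0.606 CPM in C151S livers. Malsu1, which overlaps Igf2bp3, was not called either. Mmrn1, which is also known to vary between C57BL/6 colonies, was lower in wild-type than in Nrf2-knockout livers after CDDO-Me (-2.15, SE 0.5, adjusted p = 0.0149, edgeR), and it was too low to be tested in the other 3 comparisons. Nnt, another such gene, was not called by edgeR in any of the 4 comparisons (-0.44 and 0.52 from C151S, -0.09 and 0.62 from Nrf2-knockout livers, after vehicle and CDDO-Me), and it rose with CDDO-Me in wild-type mice (1.09, SE 0.22).

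**Figure D5:**
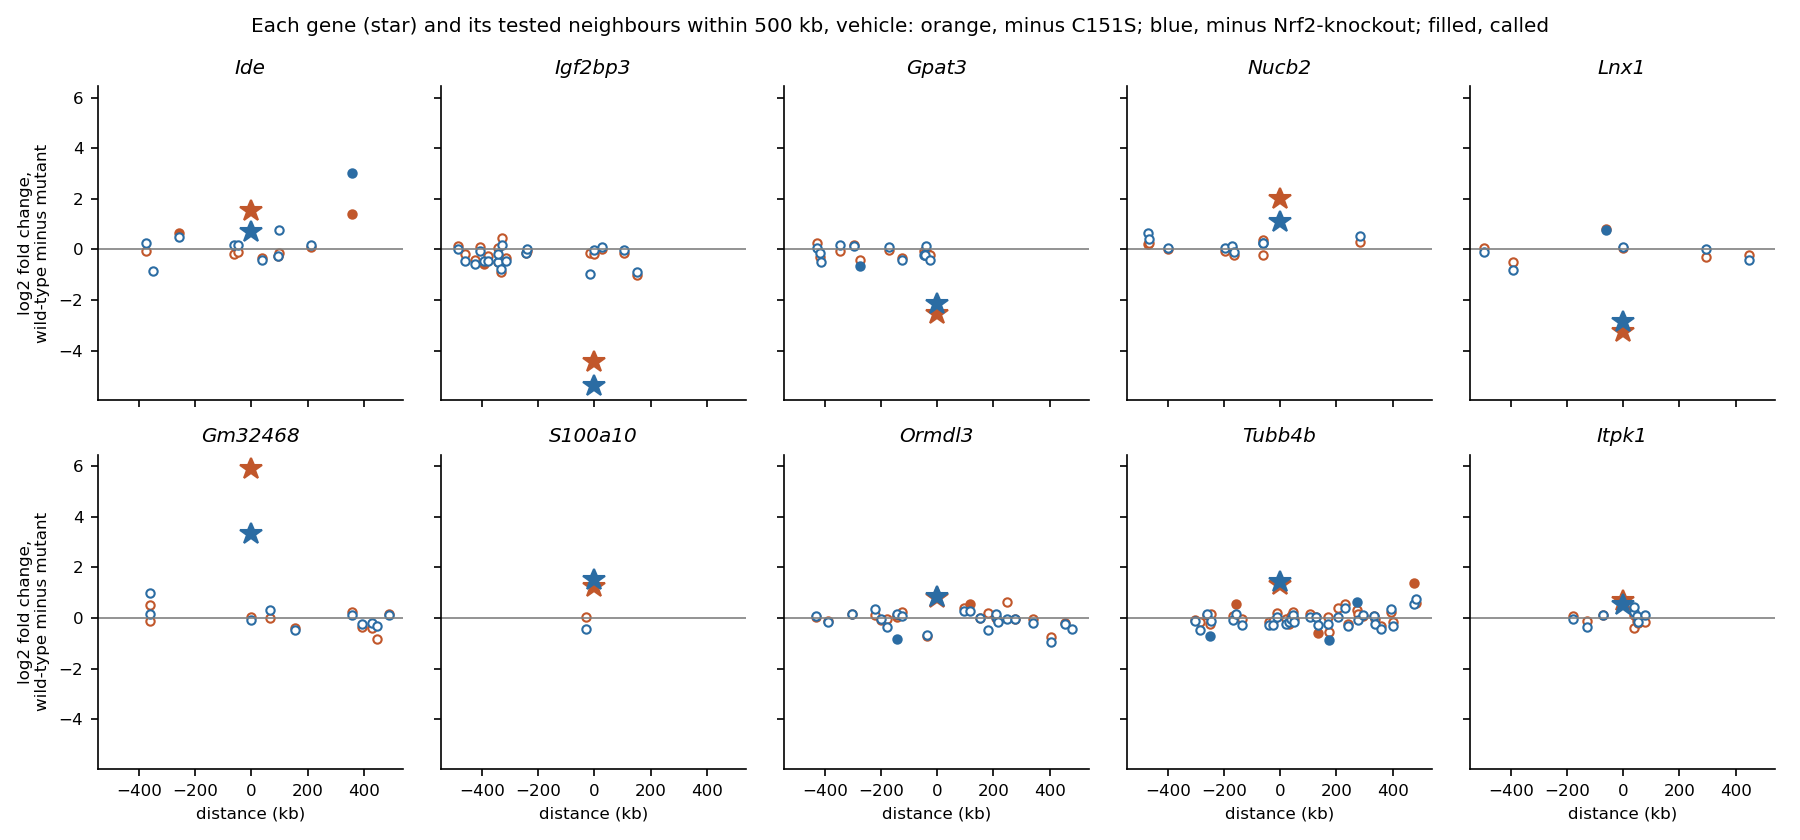
Log2 fold change of wild-type minus mutant livers after vehicle (vertical axis) for each selected gene (star) and its tested neighbours, by distance in kb (horizontal axis, up to 500 kb each way). Orange marks C151S and blue Nrf2-knockout, and filled circles are called neighbours. The stars stand away from most circles, with Cyp26a1 near Ide and Scfd2 near Lnx1 among the few filled ones.

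In bulk liver, fewer cells of a type and less RNA per cell cannot be told apart. Among other cell types, 3 of 6 endothelial markers and 4 of 7 stellate cell markers were lower in wild-type than in Nrf2-knockout livers after vehicle. After CDDO-Me, 1 of 6 and 1 of 7 were lower. Between wild-type and C151S livers 0 of each were called by edgeR in either treatment. Summed endothelial markers, of which Stab2 was the most abundant, were at 175 ± 13.1 CPM in vehicle-treated wild-type, 225 ± 41.6 in C151S, and 264 ± 54.5 in Nrf2-knockout livers, and stellate markers, led by Dcn, were at 209 ± 40.2, 269 ± 69, and 343 ± 115 CPM (SD, n = 5). Red cell markers were higher in wild-type than in Nrf2-knockout livers after vehicle at 3 of 5. Cholangiocyte markers, led by Spp1, held 1 call of 5, higher in wild-type than in C151S livers after vehicle. Kupffer cell markers and lymphocyte and neutrophil markers held no call, at 185 ± 49.2 and 2.68 ± 0.302 CPM in vehicle-treated wild-type livers and 245 ± 80.6 and 3.76 ± 1.47 CPM in Nrf2-knockout livers. Dividing cell markers fell with CDDO-Me at 3 of 4 genes in wild-type and 4 of 5 in C151S mice, and were lower in wild-type than in Nrf2-knockout livers after CDDO-Me at 2 of 3. The calls in C151S mice were lost when single libraries were left out. Without CDDO-Me-treated C151S replicate 3, for example, edgeR called 0 genes there. The part of these cells in the 10 genes was not tested.

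The gene most like each of the 10 was sought among 15009 others by the correlation of deviations from the 6 group means over 30 libraries. S100a10 was closest to Mbl1, a lectin of the complement system (r = 0.91), Ormdl3 to Nelfcd, a subunit of the negative elongation factor (0.9), Nucb2 to Nans, a sialic acid synthase (0.89, and 0.73 without the C151S library that stood apart), and Itpk1 to Prkaca, the catalytic subunit of protein kinase A (0.88). Tubb4b was closest to Selenok (0.83), Lnx1 to Atp10d (0.82), and Gm32468 to Pltp, a phospholipid transfer protein (0.73). Ide was closest to Polr3k, a subunit of RNA polymerase III (0.72), Igf2bp3 to Comtd1 (0.67), and Gpat3 to Adhfe1 (0.66). These are the highest of many values, so that they are descriptions only.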

How the data were processed

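The authors deposited raw counts per gene for 30 liver libraries (stranded mRNA, paired-end reads of 50 bases), made per the labels and methods with fastp, STAR 2.7.7, mm10, and a GENCODE mouse annotation. Symbols and positions came from GENCODE M21 (GRCm38), matched for 55154 of 55335 genes. Overlapping genes on opposite strands are told apart by strand. STAR's 4 summary lines did not enter.

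Counts were filtered with filterByExpr, normalized by TMM, and tested with edgeR 4.0.16 (R 4.3.3, legacy quasi-likelihood fit) on the libraries of each comparison. Genes were called at an adjusted p under 0.05 with a log2 fold change of 0.5 or more in size. Differences between responses used all 30 libraries without the fold threshold. SE is the log2 fold change over the square root of F. Log2 CPM used a prior count of 2. The floor of 3 counts covers counting error only. Fits were tested on simulated data. P-values measure the spread between mice. Isolation dates, a covariate in the study, are not in the labels and were not used, so that date, genotype, and colony were not separated.

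The 10 genes and the 11 gene and 8 marker lists were chosen with earlier results of these data known. Other genes named are, per list, up to 4 with the lowest p, neighbours, called genes within 500 kb, the 5 widest gaps each way, and the most alike gene. Genes named beyond that were chosen after their values were seen. Tf and Nrdc matched no symbol. Of the 4 genes of the colony list, 1 is not reported here. Alternatives included DESeq2 1.42.0.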

Additional observations from a re-analysis of the deposited data

Results flagged for a closer look

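In 11 of 60 groups of 5 livers, 1 value of a selected gene stood farther from the others than Dixon's ratio of 0.71 allows, and chance gives about 1 in 20. CDDO-Me-treated C151S replicate 1 was high in Nucb2 at 39.4 CPM (others 2.03 to 7.82), in S100a10 at 99.5 CPM (24.2 to 39.6), in Ormdl3 at 109 CPM (49.3 to 61.8), and in Itpk1 at 24.3 CPM (13.9 to 16.2). Replicate 2 of the same group was low in Lnx1 at 3 CPM (5.1 to 5.68). CDDO-Me-treated C151S replicate 3 held 1.6 CPM of Gm32468 (0 to 0.169), and replicate 3 of the vehicle-treated C151S mice 0.179 CPM (0.0274 to 0.0325), the latter from 7 counts.

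Replicate 2 of the vehicle-treated C151S mice was high in Gpat3 at 12.6 CPM (9.36 to 10.2). Ide was low in replicate 2 of the vehicle-treated wild-type mice at 201 CPM (220 to 226) and in replicate 2 of the CDDO-Me-treated Nrf2-knockout mice at 139 CPM (163 to 173). Igf2bp3 reached 0.461 CPM in replicate 5 of the CDDO-Me-treated wild-type mice (0.0706 to 0.165).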

How the results depend on the processing

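In 1529 of 1539 recomputed tests of the 10 genes the call was kept, and of 280 recomputed wild-type minus mutant differences 270 kept their direction and moved by less than the spread between replicates, 4 moved by more, and 6, all of Nucb2 after CDDO-Me, turned or reached 0. Ide between the mutants gave -0.92 to -0.76 after vehicle (adjusted p 1.25e-07 to 0.0584) and -1.02 to -0.94 after CDDO-Me (3.88e-19 to 0.0482), and Gpat3 in wild-type mice 1.16 to 1.37 (3.12e-08 to 0.0603). In a fit of all 30 libraries, CDDO-Me changed 147 genes in wild-type, 34 in C151S, and 11 in Nrf2-knockout mice, the mutants differed at 99 after vehicle and 126 after CDDO-Me, wild-type and C151S at 382 after vehicle, and 0 of the 10 genes were called in wild-type and 1 in C151S mice (Nucb2). Without the fold threshold, 580 genes were called with CDDO-Me in wild-type mice, and 1160 and 2307 between vehicle-treated wild-type and C151S or Nrf2-knockout livers. DESeq2 called 100 and 55 genes with CDDO-Me in C151S and Nrf2-knockout mice, 180 and 118 between the mutants (3 and 2 of the 10), 1154 between wild-type and C151S after CDDO-Me, and 113 and 85 responses that differed (1 of the 10 from C151S). In C151S mice CDDO-Me changed 7 genes with upper-quartile normalization, 23 without a filter, and 1 with at least 10 counts in every library. Without a filter the mutants differed at 79 and 35. Against high-Arntl mutants alone 299 genes parted the genotypes, in place of 73, a count that can only stay or rise with fewer libraries. There, after CDDO-Me, Nucb2 was -0.85 from C151S and -0.15 from Nrf2-knockout, Gpat3 -2.06, S100a10 0.85, and Itpk1 0.28 from C151S, and Tubb4b 1.13 from Nrf2-knockout after vehicle. The cause of these changes was not tested.

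Replicate numbers did not pair the samples, since no comparison had every same-numbered correlation over 0.1 (means -0.212 to 0.181). With the replicate block, CDDO-Me changed 2 genes in C151S mice, and the mutants differed at 9 and 8, with 0 of the 10 after vehicle (Ide -0.84, adjusted p = 0.0584).

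When each library was left out in turn, CDDO-Me changed 265 to 493 genes in wild-type, 0 to 22 in C151S (0 without any 1 of 7 libraries, 22 without vehicle-treated replicate 4), and 0 in Nrf2-knockout mice. The mutants differed at 29 to 54 genes after vehicle (29 without Nrf2-knockout replicate 2, 31 without C151S replicate 1 or 2 or Nrf2-knockout replicate 3) and at 11 to 38 after CDDO-Me (11 without C151S replicate 4 or Nrf2-knockout replicate 1 or 5, 12 and 15 without Nrf2-knockout replicates 3 and 4, 38 without C151S replicate 2). Wild-type and C151S differed at 390 to 1168 after vehicle (390 and 1168 without C151S replicates 2 and 4, 418 and 404 without wild-type replicates 4 and 5) and at 379 to 1303 after CDDO-Me (379, 381, 382, and 441 without wild-type replicates 1 to 4, 1303, 423, and 421 without C151S replicates 1, 4, and 5), and wild-type and Nrf2-knockout at 949 to 2050 after vehicle (949 without Nrf2-knockout replicate 3) and 975 to 1487 after CDDO-Me. Responses differed at 50 to 97 and 28 to 53 genes, with 0 to 1 of the 10 (Nucb2, without CDDO-Me-treated C151S replicate 2, 3, or 4). Genes that parted all wild-type from all mutant libraries numbered 77 to 149 (135, 128, and 149 without every replicate 1, 2, or 5), and 3 to 5 of the 10 did so. Leaving libraries out can only keep or raise these counts of parted genes. With every library of 1 replicate number left out at a time, Nucb2 after CDDO-Me was -0.23 to 0.68 from C151S and -0.01 to 0.31 from Nrf2-knockout. Counts of the least abundant genes, Igf2bp3 and Gm32468, limit their values.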

Other observations

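Beyond the 10 genes, the widest gaps with every wild-type liver above all mutant livers belonged to Vtcn1, an immune checkpoint ligand (0.709 to 3.54 CPM in wild-type against 0 to 0.355 in mutant livers), Gm18635 (4.25 to 19.7 against 0.132 to 2.54), Mapk15, an atypical MAP kinase (11.9 to 31.7 against 0.527 to 7.97), Nat8, an acetyltransferase (8.82 to 15.6 against 0.413 to 6.02), and Gstm4, a glutathione S-transferase (84.5 to 335 against 22.9 to 64). In this order Ide ranked 10 and Tubb4b 21. The widest gaps in the other direction were 5 immunoglobulin heavy chain genes, the products of plasma cells. Ighg2b lay between 0.0879 and 0.388 CPM in wild-type and between 1.27 and 18.3 CPM in mutant livers, and Igha between 0.595 and 3.57 against 4.87 to 12.2 CPM. Ighg2c (0 to 0.137 against 0.452 to 9.08), Ighv1-81 (0 to 0.0343 against 0.107 to 0.915), and Ighg1 (0 to 0.105 against 0.226 to 2.16) were lower still, and Igf2bp3 ranked 3 among all genes in this direction.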
